A study of Mus musculus with 24 samples.

Results

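Axon guidance genes encode the cues that steer growing axons and the receptors that read them, and many of the same proteins later act in cell migration, synapse formation and blood vessel growth. There are 4 classical families. Slits are secreted repellents read by Robo receptors, and netrins are secreted laminin-like cues that attract through Dcc and repel through the Unc5 receptors. Ephrins are membrane-bound ligands of the Eph receptor tyrosine kinases, and semaphorins, which are secreted or held on the membrane, signal through plexins, with neuropilins as co-receptors for most of the secreted class. In the cerebellum (CB) such cues guide granule cell migration and the fibres that reach Purkinje cells, and in the hippocampus (HC) they shape the layered input from the entorhinal cortex and the mossy fibres.

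The members were taken by symbol: every *Sema3* to *Sema7*, plexin, neuropilin, Eph, ephrin, *Robo*, *Slit*, netrin, *Unc5* and *Dcc* symbol in the count tables of both ages. This gave 69 of 25793 symbols, 35 ligands and 34 receptors. Semaphorins and their receptors made up 31 members, ephrins and Ephs 22, netrins and their receptors 9, and Slits and Robos 7. No antisense or other non-coding symbol matched. RNA was measured by RNA-seq in mice homozygous for the 16Gso reciprocal translocation, written 16GsoT/T, and in wild type (WT) mice, in CB and HC at postnatal day 14 (P14) and 35 (P35).

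Each of the 8 groups held 3 mice and each mouse gave 1 library, 24 in all. The labels name the strain as C57BL/6, while the methods of the study name a mixed C57BL/6 and C3H/He background, shortened to B6C3. That short name also stands in the titles of the WT samples from HC at both ages and from P35 CB. The methods describe 16GsoT/T mice born to homozygous parents, so WT libraries need not come from littermates. No deletion, transgene or treatment was shared by the groups, and the translocation is a single allele that breaks chromosomes 5 and 8 in every 16GsoT/T animal. Of the members, 7 lie on chromosome 5 (*Epha5*, *Ephb4*, *Sema3a*, *Sema3c*, *Sema3d*, *Sema3e* and *Slit2*) and 3 on chromosome 8 (*Efnb2*, *Nrp1* and *Unc5d*).

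Reads on genes per library ran from 2563968 to 40564789. They were fewest in P35 HC (2563968 to 4127478) and most in P14 CB (22893603 to 40564789). *Galnt17* (listed as *Wbscr17*), the gene beside the breakpoint that served as a check of the labels, was lower in every 16GsoT/T library than in every WT library of its region and age. The CB markers *Gabra6*, *Pcp2*, *En2* and *Zic1* were far above HC in every CB library (*Gabra6* from 707 to 1142 CPM in CB and from 0 to 27.4 CPM in HC), and *Neurod6* and *Wfs1* marked HC. Of the other HC markers, *Prox1* overlapped between regions and *Zbtb20* was not higher in HC. All 6 P35 CB libraries shared a lane. The 6 P14 CB libraries share a code that is no lane number, so their lanes are not known. In P14 HC the WT and 16GsoT/T libraries ran in different lanes, and the effect of the lane cannot be told apart from that of genotype. For P35 HC, WT libraries W481 and W483 carried dual indexes and WT library N10 and all 3 16GsoT/T libraries (B10 to B12) single ones, so results for that group are given by library. Bulk RNA does not separate fewer cells of a type from less RNA per cell.

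The levels of many members set CB and HC apart. On the scale of CPM, which are counts scaled to a common library size, per kb of exon, which allows genes to be compared, *Sema7a*, a GPI-anchored semaphorin, had the highest mean level of all 68 members with a length in WT P35 CB, at 63.3 ± 3.96 CPM per kb (SD, n = 3). *Epha4*, an Eph receptor with a broad ligand range, led in WT P35 HC, at 63.3 ± 6.56 CPM per kb (SD, n = 3). *Efnb3*, the transmembrane ephrin-B3, led in WT P14 HC at 59.97 ± 12.6 CPM per kb, and *Plxnb2*, a plexin of granule cell precursors, led in WT P14 CB at 26.4 ± 1.49 CPM per kb (SD, n = 3 each). *Efnb3* and *Epha4* in WT P14 HC (56.8 ± 6.52 CPM per kb) did not differ beyond their spread. Nor did *Plxnb2* in WT P14 CB and *Sema4g* (25.4 ± 2.71 CPM per kb) or *Sema7a* (24.8 ± 0.947 CPM per kb). *Sema7a* was high in both regions, with rank 2 in WT P35 HC at 45.7 ± 1.63 CPM per kb (SD, n = 3).

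**Figure D1:**
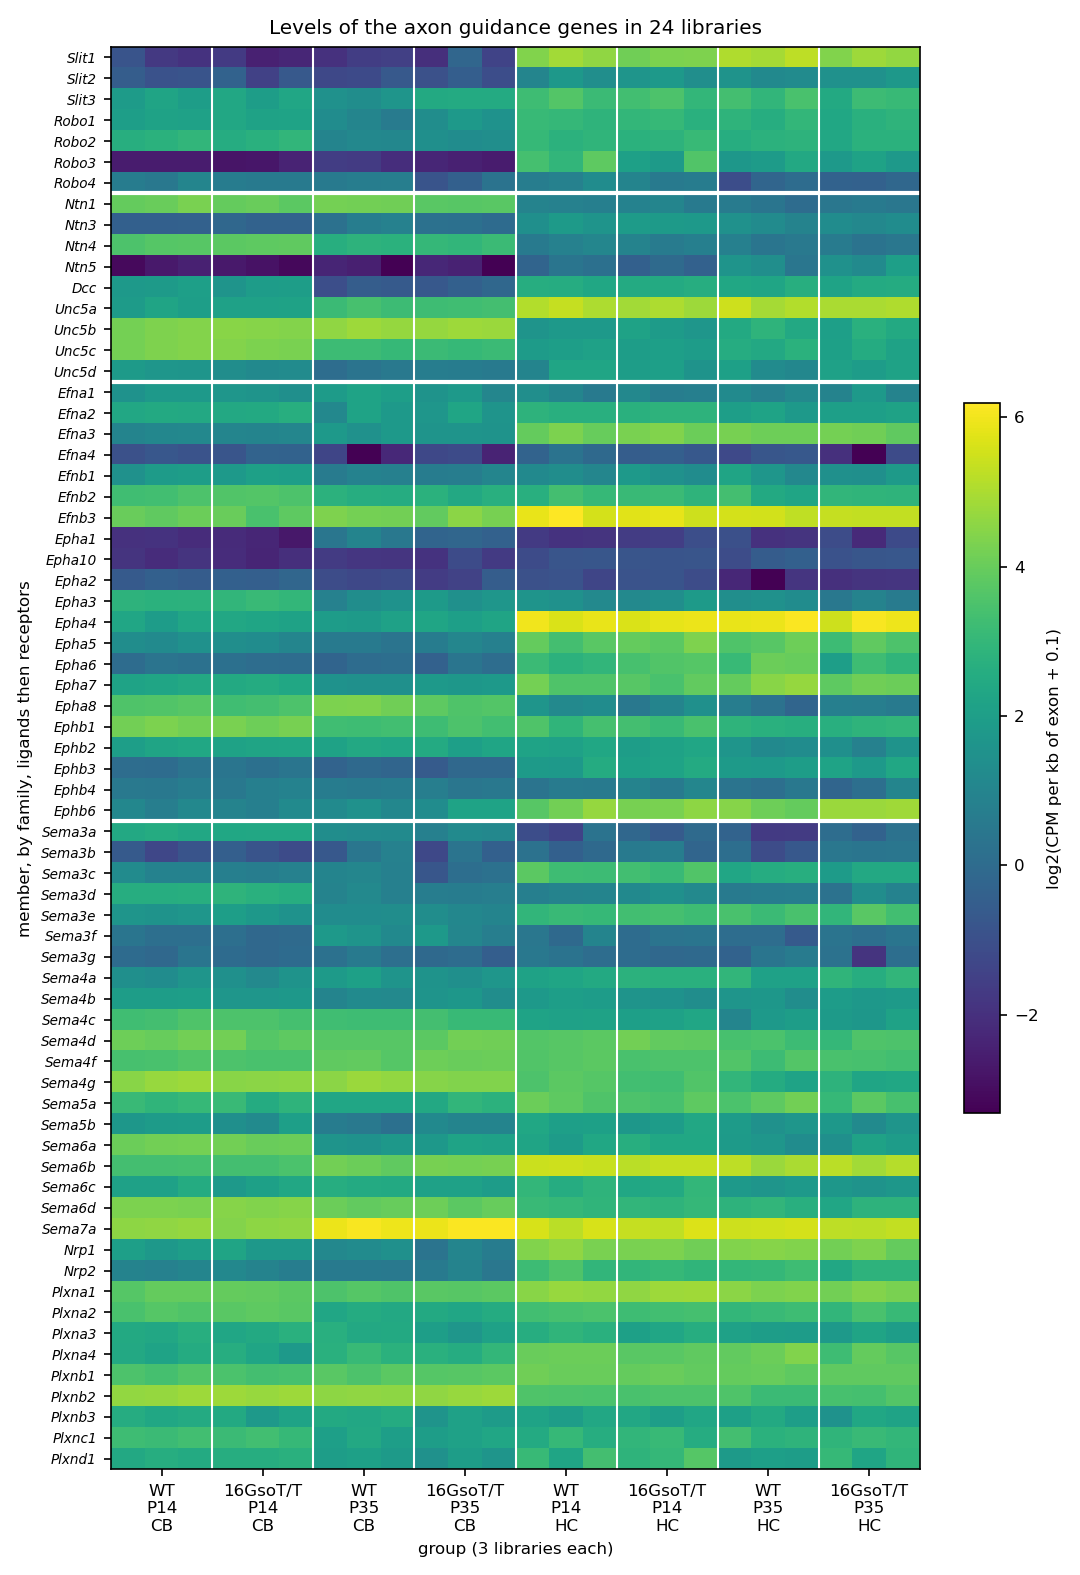
Each row is a member and each column one of the 24 libraries, 3 to a group; colour gives log2 of CPM per kb of exon plus 0.1, and white lines part groups and families. *Slit1*, *Robo3*, *Epha4* and *Unc5a* are bright in HC and dark in CB, *Ntn1*, *Unc5b* and *Epha8* the reverse, and the 2 genotypes of a region and age look alike on this scale.

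Among Slits and Robos the contrast was steepest. *Slit1*, a secreted repellent of neurons, stood at 33.2, 29.7 and 37.4 CPM per kb in the WT P35 HC libraries and at 0.159, 0.228 and 0.250 CPM per kb in the WT P35 CB libraries. *Robo3*, the Robo that lets commissural axons cross the midline, stood at 10.3, 7.59 and 14.3 CPM per kb in WT P14 HC and at 0.0636, 0.0648 and 0.0643 CPM per kb in WT P14 CB. No WT CB library of that age reached the lowest HC library for either gene. *Slit3* was the leading Slit of CB, at 4.01 ± 0.494 CPM per kb in WT P14 CB and 2.73 ± 0.310 CPM per kb in WT P35 CB, below its level in WT HC (10.2 ± 1.81 CPM per kb at P14 and 9.55 ± 1.77 CPM per kb at P35, SD, n = 3).

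Tested in WT by edgeR's quasi-likelihood test with Benjamini-Hochberg adjustment over all genes (called at an adjusted p of at most 0.05), 56 of 68 members tested differed between CB and HC at P14, 20 higher and 36 lower in CB, against 77.2% of all genes tested (38.8% higher). At P35 54 of 66 members differed, 20 higher and 34 lower, against 56.0% of all genes tested (27.5% higher). The median log2 fold change of the members, CB against HC, was -0.32 at P14 and -0.43 at P35, where that of all genes was 0.01 at both ages. Of the 65 members tested at both ages, 46 were called at both: 13 higher in CB at both, 28 lower at both and 5 in opposite directions. Region could not be told apart from the lane code of the libraries. At P14 the CB libraries also had a higher share of reads on genes (65.9% ± 0.12 in WT P14 CB and 41.3% ± 0.20 in WT P14 HC, SD, n = 3).

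**Figure D2:**
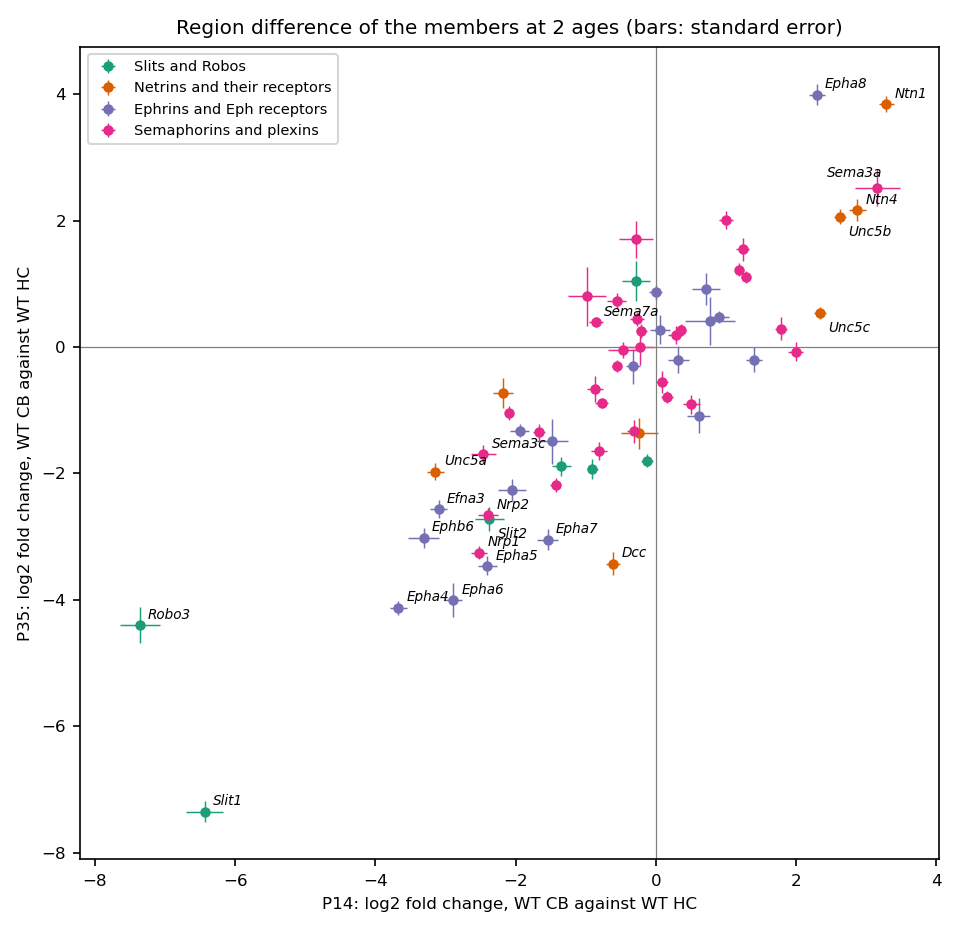
Each point is one of the 65 members tested at both ages; the x axis gives the log2 fold change of WT CB against WT HC at P14, the y axis that at P35, bars are standard errors and colours are families. Most members keep their side, *Slit1* and *Robo3* lie farthest towards HC, *Ntn1* and *Epha8* farthest towards CB, and *Sema7a* changes side.

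Of the netrins called at both ages, *Ntn1* and *Ntn4* were higher in CB and *Ntn3* was lower. *Ntn1*, the founding netrin, gave 95.9, 99.3 and 120 CPM in WT P14 CB and 11.4, 10.6 and 10.2 CPM in WT P14 HC, a log2 fold change of 3.29 ± 0.11 (SE, edgeR adjusted p = 2.31e-09), and 3.84 ± 0.13 at P35 (SE, edgeR adjusted p = 6.58e-11). *Ntn4*, a netrin of basement membranes, differed by 2.87 ± 0.12 at P14 and 2.16 ± 0.18 at P35 (log2 fold change ± SE). The repulsive netrin receptors were divided: *Unc5b* was higher in CB (2.63 ± 0.09 at P14, 2.06 ± 0.12 at P35) and *Unc5a* lower (-3.14 ± 0.12 at P14). The attractive receptor *Dcc* was lower in CB at P35 by a log2 fold change of -3.42 ± 0.19, from 40.9, 39.8 and 52.5 CPM in HC to 3.09, 4.72 and 4.43 CPM in CB.

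Among ephrins and Ephs, 11 of 21 tested members were lower in CB and 6 higher at P14, and 10 of 20 were lower and 5 higher at P35, where the shares of all genes called higher were 38.8% and 27.5%. *Epha4* gave 395, 315 and 364 CPM in WT P14 HC and 30.7, 23.3 and 30.4 CPM in WT P14 CB, with no overlap and a log2 fold change of -3.67 ± 0.13 (SE, edgeR adjusted p = 2.97e-09). *Epha6*, another ephrin-A receptor, gave 45.1, 91.1 and 86.8 CPM in WT P35 HC and 3.86, 4.84 and 5.17 CPM in WT P35 CB. *Ephb6*, an Eph without kinase activity, was lower in CB at P14 by -3.31 ± 0.22, and *Efna3*, a GPI-anchored ephrin, by -3.10 ± 0.13 at P14 and -2.56 ± 0.14 at P35 (log2 fold change ± SE). *Epha8* went the other way, with 91.04, 94.91 and 81.46 CPM in WT P35 CB and 7.43, 5.46 and 3.75 CPM in WT P35 HC.

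Semaphorins split by ligand. *Sema3a*, the secreted repellent that signals through Nrp1 and A-type plexins, was higher in CB by a log2 fold change of 3.16 ± 0.33 at P14 and 2.52 ± 0.30 at P35, while its co-receptor *Nrp1* was lower in CB by -2.53 ± 0.11 and -3.25 ± 0.11 (SE). *Nrp2*, the co-receptor of other secreted semaphorins, was lower by -2.40 ± 0.14 and -2.66 ± 0.12. *Sema3a* varied within WT HC, at 3.83, 2.80 and 11.5 CPM at P14. *Sema7a* was lower in CB at P14, with 79.1, 80.2 and 85.0 CPM against 162, 120 and 159 CPM in HC, and higher in CB at P35, with 196, 220 and 203 CPM against 150, 156 and 164 CPM. The other members called in opposite directions at the 2 ages were *Efnb1*, *Plxna3*, *Plxnc1* and *Sema6c*.

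Between P14 and P35 more members were called in CB than in HC, as was a larger share of all genes. The 2 courses were not tested against each other. In WT CB 49 of 68 members changed, 17 higher and 32 lower at P35, against 63.0% of all genes tested (32.2% higher). In WT HC 21 of 66 changed, 6 higher and 15 lower, against 24.8% of all genes tested (12.6% higher). The members' median log2 fold change from P14 to P35 was -0.26 in CB and -0.19 in HC, where that of all genes was 0.00 in CB and -0.01 in HC. Of the 65 members tested in both regions, 13 were called in both, 1 higher in both (*Unc5b*), 6 lower in both and 6 in opposite directions. In HC the count was 12 without W481 or without W483 and 24 without N10.

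In WT CB *Sema6a*, a transmembrane semaphorin needed for granule cells to move inward, dropped from 144, 158 and 161 CPM at P14 to 26.5, 24.9 and 29.9 CPM at P35, a log2 fold change of -2.52 ± 0.08 (SE, edgeR adjusted p = 1.76e-12). The other values of this paragraph are from WT CB too. Its receptor *Plxna2* fell by 1.12 ± 0.08, *Dcc* by 2.81 ± 0.15, *Robo2* by 1.73 ± 0.09 and *Robo1* by 1.09 ± 0.12 on the log2 scale. *Slit3* fell less, by 0.54 ± 0.12 on the log2 scale, with 22.3, 27.8 and 23.1 CPM at P14 and 16.87, 15.04 and 19.16 CPM at P35. *Sema7a* rose, from 79.6, 80.9 and 85.5 CPM to 204, 228 and 211 CPM. The 2 ages did not overlap for any of these genes.

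In WT HC *Robo3* fell from 68.5, 50.8 and 95.2 CPM at P14 to 21.5, 25.0 and 36.5 CPM at P35, a log2 fold change of -1.37 ± 0.25 (SE, edgeR adjusted p = 0.00379). *Robo4*, the Robo of endothelial cells, fell from 6.26, 7.04 and 9.64 CPM to 1.538, 3.161 and 3.903 CPM. *Ephb2*, a receptor also found at synapses, fell by 0.82 ± 0.12, and *Sema6c*, a transmembrane semaphorin, by 1.07 ± 0.14 on the log2 scale. *Unc5b* rose by 0.90 ± 0.15 and *Unc5c* by 0.60 ± 0.11 on the log2 scale (SE). Age and the lane code cannot be told apart in either region. In CB the share of reads on genes also differed between the ages (65.9% ± 0.12 in WT P14 CB and 37.7% ± 0.065 in WT P35 CB, SD, n = 3). For WT HC it was 41.3% ± 0.20 at P14 and 40.0% ± 0.85 at P35 (SD, n = 3). The part of this share in the age values was not tested.

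The comparison of 16GsoT/T with WT, in each region and age, was the contrast the study was built for. Most calls among the members fell in P35 CB. There 21 of 65 members tested were called, 11 higher and 10 lower in 16GsoT/T, against 35.3% of all genes tested (17.4% higher), so the share called among the members, 32.3%, was near that background. Offsets for GC content and exon length called 22 members, 9 higher and 13 lower, and one fit of the 12 P35 libraries called 14, 5 higher and 9 lower. The shares of all genes called under these settings are not given here. In P14 CB 0 of 68 members were called (0.506% of all genes), with 8 at an unadjusted p under 0.05 and 1 called by DESeq2. In P14 HC 1 of 68 was called (0.814% of all genes), with 12 at an unadjusted p under 0.05 and 3 called by DESeq2. In P35 HC 0 of 66 were called (0.135% of all genes), with 14 at an unadjusted p under 0.05 and 2 called by DESeq2. In P35 CB the median log2 fold change was -0.0040 over the members and -0.0040 over all genes, and the share of reads on genes was 37.7% ± 0.065 (SD, n = 3) in WT against 42.3% ± 0.056 (SD, n = 3) in 16GsoT/T, a difference whose part in the results was not tested.

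By role, the members that rose in P35 CB were 7 ligands and 4 receptors, and those that fell were 4 ligands and 6 receptors, of 33 ligands and 32 receptors tested. Of all genes tested 35.3% were called and 17.4% were called higher. Of the 65 members tested, 9 were called with a fold of at least 1.5, against 11.7% of all genes tested. The groups did not overlap for 28 of the 65 members, against 47.3% of all genes tested. The members not tested, because of low counts, were *Efna4*, *Epha10*, *Ntn5* and *Robo3*.

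**Figure D3:**
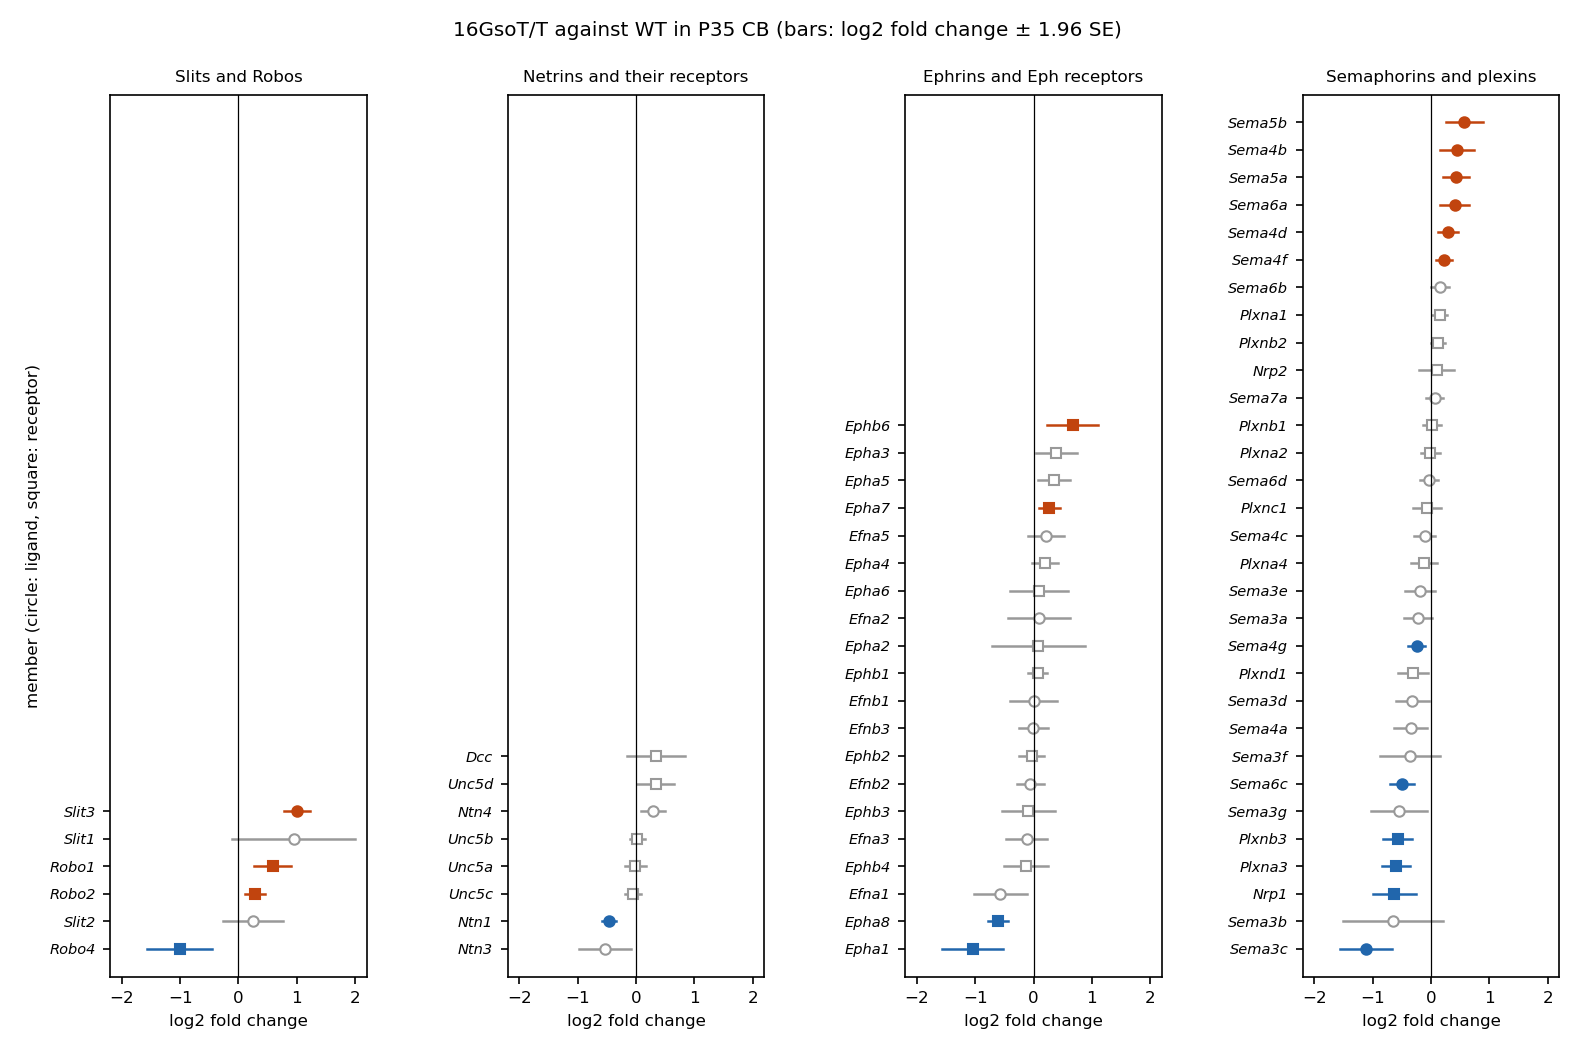
Each panel is a family and each line a member, with the log2 fold change of 16GsoT/T against WT in P35 CB and its 95% interval from the standard error; circles are ligands, squares receptors, filled red symbols are members called higher, filled blue symbols members called lower and open grey symbols members not called. *Slit3* stands at 0.9997 and *Sema3c*, *Epha1* and *Robo4* near -1, and no netrin receptor is filled.

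*Slit3*, a secreted Slit at chr11:34934726-35522009 on the plus strand (NCBIM37), showed the largest rise among the called members. It stood at 16.696, 14.892 and 19.004 CPM in the WT libraries M27, M28 and M29 and at 32.6, 33.5 and 34.1 CPM in the 16GsoT/T libraries C19, C20 and C21. Every 16GsoT/T library lay above every WT library, and the log2 fold change was 0.9997 ± 0.11 (SE, edgeR adjusted p = 4.43e-05, n = 3 per group). Of its receptors, *Robo1*, at chr16:72663394-73046340 on the plus strand, rose from 22.7, 18.4 and 14.3 CPM to 23.69, 32.66 and 27.04 CPM (log2 fold change 0.59 ± 0.16, SE, edgeR adjusted p = 0.0147), and *Robo2* from 31.3, 35.1 and 34.4 CPM to 42.4, 39.3 and 41.1 CPM (0.28 ± 0.09, SE, edgeR adjusted p = 0.0256). Both groups were apart for each gene, narrowly for *Robo1*. *Slit2*, the third secreted Slit, was not called, with 4.93, 5.21 and 8.17 CPM in WT and 6.18, 9.37 and 5.68 CPM in 16GsoT/T. *Slit1* was low in both genotypes, with 0.954, 1.37 and 1.52 CPM in WT and 0.858, 4.69 and 1.64 CPM in 16GsoT/T, and C20 alone stood above the others (log2 fold change 0.94 ± 0.54, SE, edgeR adjusted p = 0.192).

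*Robo4*, which acts in blood vessels, moved the other way, from 5.88, 6.33 and 6.65 CPM in the WT mice to 1.89, 2.70 and 4.63 CPM in 16GsoT/T (log2 fold change -1.01 ± 0.29, SE, edgeR adjusted p = 0.0165). Of the endothelial markers 6 of 6 were called lower, and their summed level ran from 150 to 163 CPM in WT and from 76.6 to 92.5 CPM in 16GsoT/T. Beside this list and those that follow, 35.3% of all genes tested were called in either direction. Mural cell markers were lower in 6 of 6 (82.8 to 96.4 CPM in WT against 37.6 to 43.0 CPM in 16GsoT/T) and meningeal fibroblast markers in 5 of 7 (161 to 163 CPM in WT against 94.4 to 119 CPM in 16GsoT/T). Choroid plexus markers were lower in 2 of 6, with sums from 20.5 to 2119 CPM in WT and from 136 to 375 CPM in 16GsoT/T. No marker of these lists was at 0. Their part in the values of *Robo4* and of the other members that fell was not tested.

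The sequences upstream of *Slit3*, *Robo1* and *Epha8* are shown because they belong to the Slit that rose most, to its receptor and to the Eph with the smallest adjusted p among those called. Each is the 250 bases before the start of the gene in RefSeq on build GRCm38.p6, 5′ to 3′ on the strand of the gene: *Slit3* chr11:35121206-35121455 on the plus strand, *Robo1* chr16:72662899-72663148 on the plus strand and *Epha8* chr4:136956817-136957066 on the minus strand. Capitals mark GC boxes (GGGCGG) and CCAAT boxes (CCAAT), searched on both strands with overlaps kept, together with the TATA box (TATAA), which none of the 3 held.
Slit3: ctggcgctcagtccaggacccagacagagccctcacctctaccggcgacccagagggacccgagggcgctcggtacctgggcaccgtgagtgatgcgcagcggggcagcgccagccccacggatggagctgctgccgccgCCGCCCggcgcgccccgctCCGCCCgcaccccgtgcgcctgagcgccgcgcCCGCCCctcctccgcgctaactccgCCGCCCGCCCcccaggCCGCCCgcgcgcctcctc
Robo1: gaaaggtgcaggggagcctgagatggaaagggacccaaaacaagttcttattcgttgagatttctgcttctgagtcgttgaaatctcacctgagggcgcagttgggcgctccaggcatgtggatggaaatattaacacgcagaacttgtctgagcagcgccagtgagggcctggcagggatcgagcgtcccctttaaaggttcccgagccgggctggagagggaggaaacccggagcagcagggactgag
Epha8: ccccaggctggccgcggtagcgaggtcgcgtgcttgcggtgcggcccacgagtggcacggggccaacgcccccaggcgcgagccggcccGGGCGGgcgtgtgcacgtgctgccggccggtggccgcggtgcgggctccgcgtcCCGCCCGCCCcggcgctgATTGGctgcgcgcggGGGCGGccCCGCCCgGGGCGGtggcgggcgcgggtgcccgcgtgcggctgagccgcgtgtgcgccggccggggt

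The *Slit3* and *Epha8* sequences held 6 GC boxes each, that of *Epha8* also 1 CCAAT box, and that of *Robo1* held none of these letters. Of the 59 members found in the RefSeq table, 43 (72.9%) held a GC box, 15 (25.4%) a CCAAT box and 5 (8.47%) a TATA box, where the shares over 27025 genes were 32.9%, 34.5% and 23.5%. A GC box was held by 5 of 10 members that rose in P35 CB and by 7 of 9 that fell. These matches are descriptions of the letters and are no evidence of binding. The 10 members without an entry were *Dcc*, *Efnb3*, *Ntn1*, *Plxna1*, *Plxna4*, *Sema3b*, *Sema3f*, *Sema6a*, *Slit1* and *Unc5d*.

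Of the 8 members of the netrin family tested, *Ntn1* alone was called in P35 CB, against 35.3% of all genes tested. The gene lies at chr11:68022866-68214325 on the minus strand. It stood at 117, 114 and 113 CPM in WT and at 84.1, 83.1 and 83.7 CPM in 16GsoT/T, with replicates close together and no overlap (log2 fold change -0.46 ± 0.06, SE, edgeR adjusted p = 0.000143). *Ntn4* lay at 23.2, 26.4 and 25.3 CPM in WT and 30.4, 28.3 and 33.2 CPM in 16GsoT/T and missed the threshold (edgeR adjusted p = 0.0508). The receptors of Ntn1 were not called: *Unc5a*, *Unc5b* and *Unc5c* had log2 fold changes of -0.01 ± 0.09, 0.02 ± 0.06 and -0.06 ± 0.07 (SE), *Unc5d* of 0.34 ± 0.16 and *Dcc* of 0.34 ± 0.26.

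Among Ephs 4 of 13 members tested were called, against 35.3% of all genes tested. Among ephrins 0 of 7 tested were called, with 1 at an unadjusted p under 0.05 and 0 called by DESeq2. *Epha8*, an ephrin-A receptor at chr4:136485334-136512731 on the minus strand, fell from 93.7, 97.4 and 83.8 CPM in the WT mice to 66.8, 55.7 and 59.0 CPM in 16GsoT/T (log2 fold change -0.61 ± 0.09, SE, edgeR adjusted p = 0.000227). *Epha1*, the Eph first found in epithelia, fell from 4.134, 6.205 and 4.371 CPM to 2.404, 2.556 and 2.241 CPM (-1.05 ± 0.27, SE, edgeR adjusted p = 0.00963). *Ephb6* rose from 8.59, 10.4 and 7.79 CPM to 9.10, 16.9 and 16.9 CPM (0.67 ± 0.22, SE, edgeR adjusted p = 0.0333), with library C19 inside the WT range. *Epha7*, an ephrin-A receptor, rose by a log2 fold change of 0.27 ± 0.09 (SE, edgeR adjusted p = 0.0403).

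Of the 20 semaphorin ligands tested, 6 rose and 3 fell, where 35.3% of all genes tested were called and 17.4% were called higher. *Sema5a*, a semaphorin with thrombospondin repeats, stood at 59.2, 59.3 and 59.9 CPM in WT and at 63.7, 92.5 and 83.2 CPM in 16GsoT/T (log2 fold change 0.43 ± 0.11, SE, edgeR adjusted p = 0.0104), and its relative *Sema5b* at 10.8, 9.68 and 7.60 CPM and 15.6, 13.3 and 13.3 CPM (0.57 ± 0.16, edgeR adjusted p = 0.0160). *Sema6a* rose by 0.41 ± 0.13, *Sema4b* by 0.44 ± 0.15, *Sema4d*, the ligand of Plxnb1, by 0.29 ± 0.09 and *Sema4f* by 0.22 ± 0.07 (log2 fold change ± SE). In C19 *Sema6a* (28.5 CPM) lay inside the WT range of 24.7 to 29.6 CPM, so its groups overlapped. Granule cell markers were called higher in 3 of 7 and lower in 1, where 35.3% of all genes tested were called. Their sums rose, from 5164 to 5638 CPM in WT and from 5951 to 6118 CPM in 16GsoT/T. The CB marker *Gabra6* went the other way, with a mean of 711 CPM for the mutants below the WT mean of 849 CPM. Of the 3 oligodendrocyte precursor markers 1 was higher, and their sums ran from 74.1 to 82.7 CPM in WT and from 85.2 to 103 CPM in 16GsoT/T. Purkinje cell markers were higher in 2 of 7 and lower in 1, and their sums of 9268 to 9758 CPM in WT and 9616 to 10758 CPM in 16GsoT/T overlapped. The part of these markers in the values of the members that rose was not tested.

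The semaphorin that fell most was *Sema3c*, a secreted class 3 ligand at chr5:17080099-17236086 on the plus strand, from 13.4, 14.0 and 12.4 CPM in the WT mice to 3.43, 7.10 and 7.62 CPM in 16GsoT/T (log2 fold change -1.11 ± 0.23, SE, edgeR adjusted p = 0.00249). *Nrp1*, a co-receptor of Sema3 ligands that endothelial cells also carry, fell from 12.6, 13.9 and 16.0 CPM to 6.87, 11.4 and 8.81 CPM (-0.63 ± 0.19, SE, edgeR adjusted p = 0.0193). *Plxna3*, a plexin that signals with neuropilins, fell from 50.1, 42.2 and 43.9 CPM to 31.6, 24.3 and 33.8 CPM (-0.61 ± 0.12, SE, edgeR adjusted p = 0.00224). *Plxnb3*, a receptor of Sema5a, fell by 0.57 ± 0.13, *Sema6c* by 0.49 ± 0.10 and *Sema4g* by 0.25 ± 0.07 on the log2 scale (SE). None of the 11 plexins and neuropilins tested was called higher, where 17.4% of all genes tested were.

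Of the 21 calls, 8 held in each of the 6 fits that left out 1 library (*Epha8*, *Ntn1*, *Plxna3*, *Plxnb3*, *Sema3c*, *Sema5a*, *Sema6c* and *Slit3*), and 4 of them (*Epha8*, *Plxna3*, *Sema3c* and *Slit3*) also under all 6 other settings tried. Without M28 12 members were called, and *Epha1*, *Epha7*, *Nrp1*, *Robo1*, *Robo4*, *Sema4b*, *Sema4d*, *Sema4g* and *Sema6a* were lost. Without C21 13 members were called, and *Epha7*, *Ephb6*, *Nrp1*, *Robo2*, *Sema4d*, *Sema4f*, *Sema4g* and *Sema6a* were lost. Without M29 13 members were called, with the loss of *Epha7*, *Ephb6*, *Nrp1*, *Robo1*, *Robo4*, *Sema4b*, *Sema4f*, *Sema4g* and *Sema5b*. The counts were 19 without C19, 17 without C20 and 15 without M27. Over these fits the log2 fold change of *Robo1* ran from 0.45 to 0.76, that of *Robo4* from -1.42 to -0.78 and that of *Slit3* from 0.91 to 1.09. With all 6 libraries DESeq2 called 13 of the 21. It did not call *Epha1*, *Epha7*, *Nrp1*, *Robo2*, *Sema4b*, *Sema4f*, *Sema4g* and *Sema5b*.

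**Figure D4:**
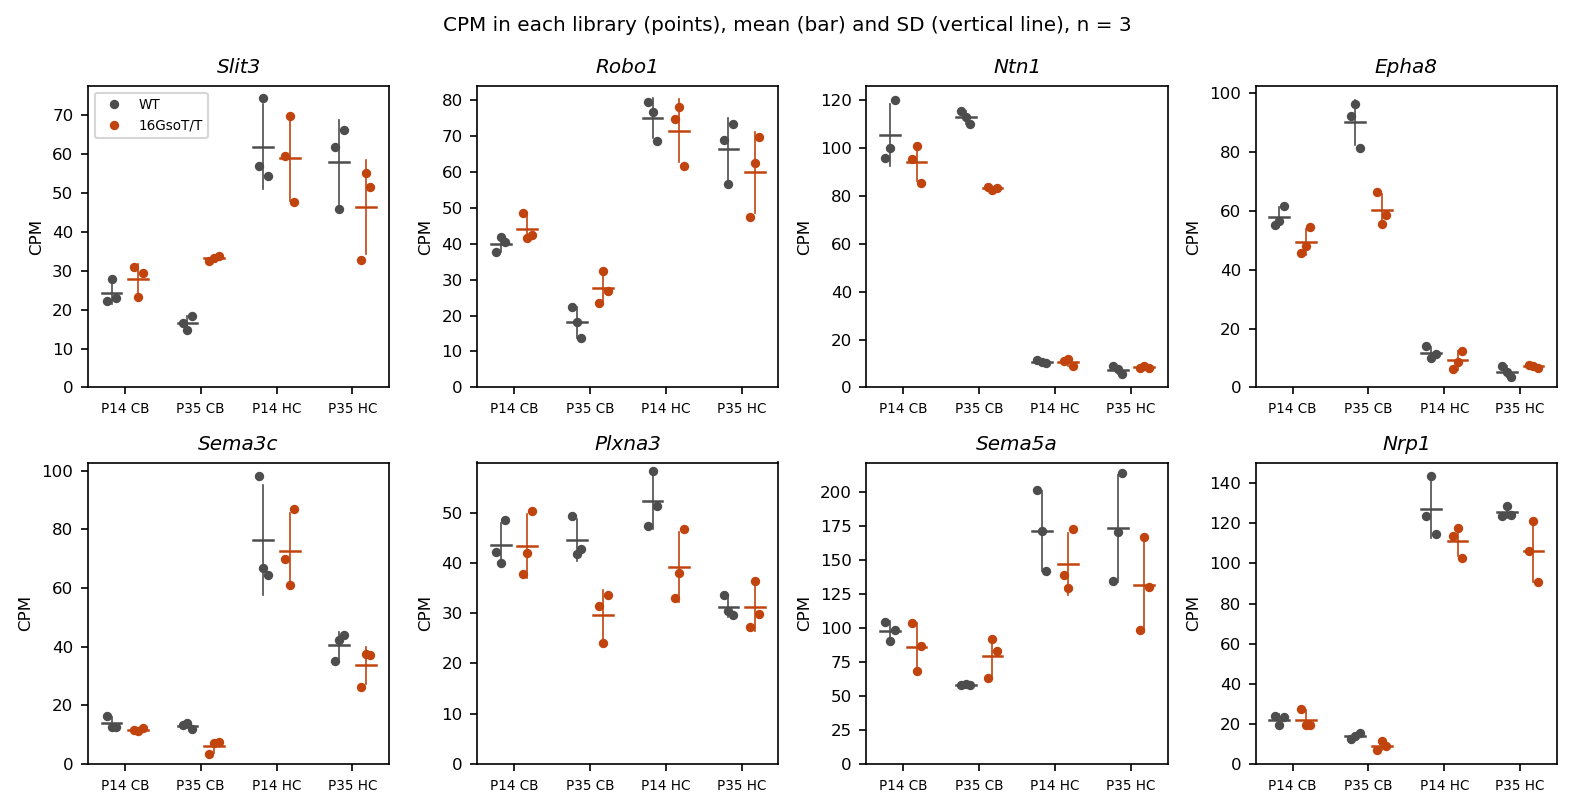
CPM of 8 members in every library (points) with the mean (bar) and SD (vertical line) of 3 libraries, WT in grey and 16GsoT/T in red, for P14 CB, P35 CB, P14 HC and P35 HC. In P35 CB the 2 genotypes stand apart for each of the 8 genes, *Slit3*, *Robo1* and *Sema5a* with 16GsoT/T above and *Ntn1*, *Epha8*, *Sema3c*, *Plxna3* and *Nrp1* with 16GsoT/T below.

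A list of 61 partners and effectors of these receptors, such as collapsin response mediators and regulators of the actin cytoskeleton, was described beside them. The list was chosen with earlier results known. In P35 CB 23 of the 61 were called higher and 7 lower (49.2%, against 35.3% of all genes tested), with a median log2 fold change of 0.16. Among those that rose were *Crmp1* (0.53 ± 0.06) and *Dpysl2* (0.51 ± 0.08), which carry semaphorin signals to microtubules, and *L1cam* (0.63 ± 0.09), an adhesion partner of Nrp1 (log2 fold change ± SE). Among those that fell were *Rock1* (-0.68 ± 0.08), a kinase that acts on the actin cytoskeleton, and *Cxcl12* (-0.79 ± 0.08), a chemokine made by meninges and vessels. In P14 HC 1 of the 61 was called, *Dpysl4*, with a log2 fold change of -0.44 ± 0.07 (SE), against 0.814% of all genes tested, with 12 at an unadjusted p under 0.05 and 4 called by DESeq2. In P14 CB and in P35 HC 0 of the 61 were called by edgeR, with 6 at an unadjusted p under 0.05 and 1 called by DESeq2 in each.

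At P14 in CB the nearest to a call was *Unc5d*, a repulsive netrin receptor at chr8:29757189-30329810 on the minus strand, with 31.6, 27.2 and 26.5 CPM in WT and 21.4, 19.1 and 20.5 CPM in 16GsoT/T. All 3 16GsoT/T libraries lay below all 3 WT libraries, and the log2 fold change was -0.49 ± 0.09 (SE, edgeR adjusted p = 0.0644). DESeq2 called it (adjusted p = 0.0016), as did edgeR without a filter, with offsets for GC content and exon length, and without library TT4. *Sema4b* had a log2 fold change of -0.31 ± 0.08 and *Plxnb3* of -0.33 ± 0.15, while *Epha3*, *Efnb2* and *Plxna2* had 0.21 ± 0.07, 0.20 ± 0.08 and 0.19 ± 0.08 (SE), none of them called. *Slit3* had 22.2, 27.5 and 22.9 CPM in WT and 30.5, 22.3 and 28.9 CPM in 16GsoT/T at P14, with the groups overlapping (0.17 ± 0.13, SE, edgeR adjusted p = 0.784). Purkinje cell markers summed to 7076 to 7725 CPM in WT and 6226 to 6594 CPM in 16GsoT/T, without overlap, with all 7 log2 fold changes below 0, 0 called by edgeR, 3 at an unadjusted p under 0.05 and 1 called by DESeq2. Granule cell markers had all 7 log2 fold changes above 0, with overlapping sums of 4791 to 5769 CPM in WT and 5680 to 5973 CPM in 16GsoT/T. Oligodendrocyte markers summed to 9538 to 11003 CPM in WT and 5986 to 10371 CPM in 16GsoT/T, with 0 of 7 called by edgeR or DESeq2 and 3 at an unadjusted p under 0.05, and the part of these 3 lists in the members' values was not tested.

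At P14 in HC the called member was *Epha6*, an ephrin-A receptor, with 47.4, 36.4 and 40.6 CPM in WT libraries N4, N5 and N6 and 56.7, 64.1 and 67.7 CPM in 16GsoT/T libraries A13, A14 and A18. The groups did not overlap and the log2 fold change was 0.60 ± 0.11 (SE, edgeR adjusted p = 0.0491). The call was lost in all 6 fits that left out 1 library, with size factors of DESeq2 and with offsets for GC content and exon length, while the log2 fold change stayed at 0.51 or above in the fits with a library left out. *Sema4a* (0.45 ± 0.09, SE, edgeR adjusted p = 0.0673), a transmembrane semaphorin, was not called by edgeR, and DESeq2 called it (adjusted p = 0.0308). *Sema4b* had a log2 fold change of -0.42 ± 0.11 and *Plxna3* of -0.41 ± 0.13 (SE), both uncalled. *Robo3* was uneven in 16GsoT/T, with 28.1, 23.9 and 83.0 CPM against 69.5, 51.9 and 97.1 CPM in WT, and the 2 groups overlapped. Without A18 its log2 fold change was -1.49 and edgeR called it. Of the hippocampal neuron markers 1 of 7 was called higher by edgeR (*Zbtb20*), 6 had an unadjusted p under 0.05 and 4 were called by DESeq2, with sums from 568 to 816 CPM in WT and from 645 to 655 CPM in 16GsoT/T. Striatal markers summed to 65.3 to 488 CPM in WT and 72.2 to 90.4 CPM in 16GsoT/T, choroid plexus markers to 109 to 918 CPM and 90.7 to 1795 CPM, and oligodendrocyte markers to 3072 to 5224 CPM and 5086 to 8297 CPM. Their part in these values was not tested.

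At P35 in HC no member was called by edgeR, and several members differed between the dual-index and the single-index WT libraries. *Sema3a* stood at 2.12 and 2.24 CPM in the dual-index WT libraries W481 and W483, at 7.12 CPM in the single-index WT library N10 and at 9.872, 6.996 and 11.1 CPM in 16GsoT/T (log2 fold change 1.28 ± 0.41, SE, edgeR adjusted p = 0.352). *Efna5*, an ephrin-A, stood at 4.50 and 2.52 CPM in W481 and W483, at 11.7 CPM in N10 and at 8.91, 10.88 and 14.98 CPM in 16GsoT/T, and its log2 fold change went from 0.87 to -0.02 once the kind of index was a covariate. *Epha6* stood at 88.3 and 84.2 CPM in W481 and W483, at 43.2 CPM in N10 and at 21.4, 48.6 and 39.4 CPM in 16GsoT/T (log2 fold change -1.01 ± 0.28, SE, edgeR adjusted p = 0.274). For these 3 genes N10 lay within the 16GsoT/T range. With the kind of index as a covariate the log2 fold change of *Epha6* was -0.28 and that of *Sema3a* 0.40. Because W481 and W483 were the only dual-index libraries, N10 alone stood for WT in the genotype effect of that fit. Its values for these 3 genes therefore follow from the place of N10 and decide nothing further.

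For 2 other members of P35 HC, named because DESeq2 called them and chosen after their values were seen, N10 lay outside the 16GsoT/T range. *Plxnd1*, the receptor of Sema3e, had 24.7, 29.4 and 28.3 CPM in N10, W481 and W483 and 60.7, 33.4 and 53.0 CPM in 16GsoT/T (log2 fold change 0.86 ± 0.19, SE, edgeR adjusted p = 0.155, DESeq2 adjusted p = 0.0496). *Ephb6* had 81.6, 65.9 and 59.0 CPM in WT and 105, 101 and 108 CPM in 16GsoT/T (0.61 ± 0.13, SE, edgeR adjusted p = 0.135, DESeq2 adjusted p = 0.0406). For *Ephb6* N10 lay between the dual-index WT libraries and 16GsoT/T. *Epha3* had a log2 fold change of -0.75 ± 0.23, *Plxna4* of -0.49 ± 0.17 and *Sema3b* of 0.99 ± 0.39 (SE), all uncalled. Choroid plexus markers were higher in 4 of 6, from 81.1 to 92.3 CPM summed in WT and from 350 to 1761 CPM in 16GsoT/T, and thalamic markers ran from 54.6 to 181 CPM in WT and from 39.6 to 56.6 CPM in 16GsoT/T. Their part in these values was not tested. Without N10 6 members were called, a count that has no share of all genes beside it and is not read as a result about the members. In that fit every WT library was dual-index and every 16GsoT/T library single-index, so index and genotype cannot be told apart.

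Interaction terms asked whether the genotype effect differed between regions or ages. At P35 6 of 67 members differed between CB and HC, 3 with the effect higher in CB, against 9.61% of all genes tested (4.50% higher in CB). In CB 8 of 68 differed between P35 and P14, 6 with the effect higher at P35, against 18.6% of all genes tested (7.81% higher at P35). At P14 0 of 69 members differed between regions (8 at an unadjusted p under 0.05 and 1 called by DESeq2), where edgeR called 0% of all genes. In HC 0 of 67 differed between ages (4 at an unadjusted p under 0.05 and 1 called by DESeq2), against 0.00666% of all genes. The P35 count was 3 without W483 or without M28 and 11 without N10, and the CB count was 3 without M28 and 5 without C20, M27, WT1 or TT5. The P35 terms held no covariate for the kind of index, and in P35 HC only WT libraries W481 and W483 carried dual indexes. *Slit3* and *Sema5a* were called in both sets. For *Slit3* the genotype effect was higher in CB than in HC at P35 by 1.34 ± 0.24 and higher at P35 than at P14 in CB by 0.82 ± 0.18 (log2, SE, edgeR adjusted p = 0.0025 and 0.00538). Both terms use the P35 CB libraries, so they are not independent of each other or of the P35 CB fit.

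*Unc5d* had genotype effects of opposite sign at the 2 ages in CB, -0.49 ± 0.09 at P14 and 0.34 ± 0.16 at P35, and the difference was 0.82 ± 0.17 (log2, SE, edgeR adjusted p = 0.00445). *Sema4b* was similar, with -0.31 ± 0.08 at P14, 0.44 ± 0.15 at P35 and a difference of 0.75 ± 0.16 (edgeR adjusted p = 0.00429). In WT CB *Unc5d* fell from 31.8, 27.5 and 26.7 CPM at P14 to 8.67, 10.7 and 12.5 CPM at P35, and *Sema6a* and *Slit3* fell with age too, as given above. In 16GsoT/T CB at P35 *Slit3* stood at 5.48 ± 0.125 CPM per kb, against 4.58 ± 0.673 CPM per kb at P14 (SD, n = 3).

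**Figure D5:**
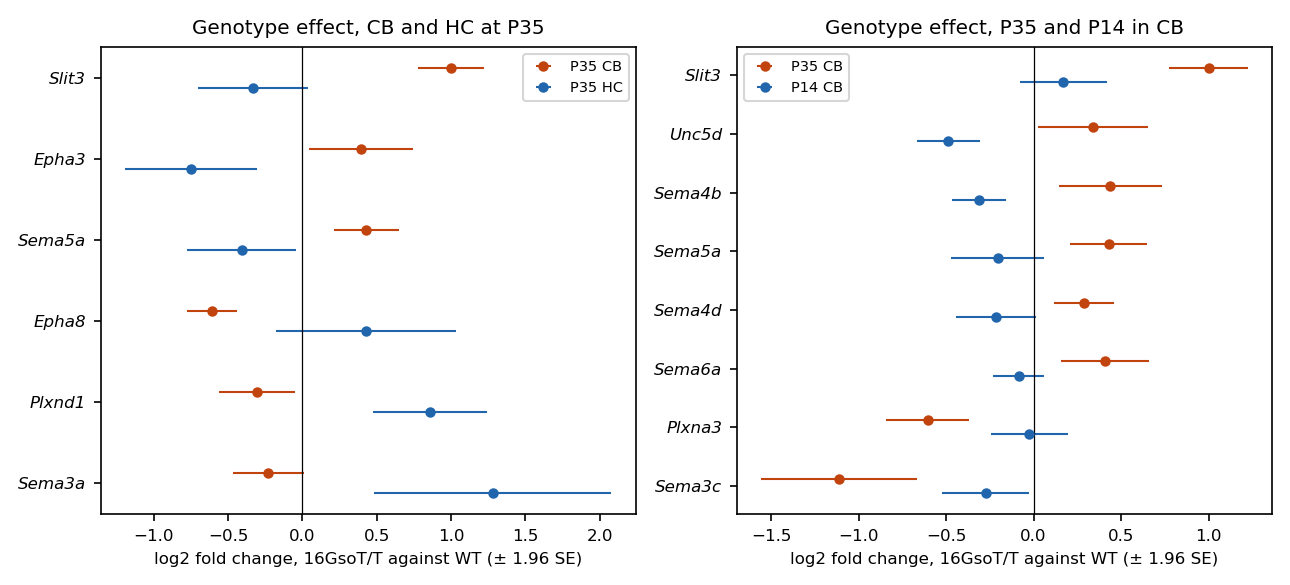
Log2 fold changes of 16GsoT/T against WT with 95% intervals from the standard errors, for the 6 members whose genotype effect differed between CB and HC at P35 (left) and the 8 whose effect differed between P35 and P14 in CB (right), each from its own fit. On the left *Slit3* is at 0.9997 in CB and -0.34 in HC, and on the right *Unc5d* and *Sema4b* lie on opposite sides of 0 at the 2 ages.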

How the data were processed

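RNA-seq libraries of CB and HC from 3 mice per group were made with a stranded mRNA kit, which the labels and the paper's methods name differently (TruSeq and KAPA). Per the labels, reads were called with CASAVA 1.8.2, mapped to NCBIM37 with TopHat2 2.0.8 and counted with HTSeq 0.6.1, and the authors deposited raw counts per gene symbol without normalization, in one table per age. The strand setting of the counting is not given in the sources used here, so overlapping genes may share reads: 25.9% of the exon length of *Ntn5*, 14.1% of that of *Efna3*, 10.7% of that of *Plxna1* and 10.5% of that of *Efna4* overlap another gene. The counter's summary rows, 31.9% to 62.4% of all counts, stayed out of the library sizes.

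Counts were filtered with filterByExpr (minimum count 10, minimum total 15), scaled by TMM and fitted with the quasi-likelihood test of edgeR 4.0.16 in R 4.3.3, with Benjamini-Hochberg adjustment over all genes tested, in one fit per comparison (6 libraries; 12 for interactions). CPM beside a fold change comes from that fit, while CPM per kb uses TMM over the 24 libraries and the union of exons in GENCODE vM1, which gave a length to 68 of 69 members (*Efna5* had more than one position). Positions are on NCBIM37, except for upstream sequences, which come from RefSeq on GRCm38.p6. No 2 libraries of a group agreed within sampling noise, and nothing names litters, so p-values measure the spread between the libraries. On simulated counts with 200 genes changed by 1.5 on the log2 scale, the share of changed genes tested that was recovered was, for genotype, 94.95% (P14 CB, 15993 genes), 95.9% (P35 CB, 14004 genes), 91.88% (P14 HC, 15227 genes) and 91.79% (P35 HC, 13343 genes), and 77.89% for the interaction with region at P14 (16398) and 81.73% at P35 (14363). No member tested reached a log2 fold change of 1.5 in either direction in a genotype comparison, the largest being 1.28 (*Sema3a* in P35 HC). These shares therefore do not describe how well the smaller changes reported here are recovered. DESeq2 1.42.0 and the other settings were alternatives. No column of values was left out. The genes named were taken from every called member of a genotype comparison, the 3 highest and 3 lowest with a mean log2 CPM of at least 2 where fewer than 6 were called, the leading ligands and receptors of each family in WT, by level and by change, and every member called in an interaction. Any other gene named was chosen after its values were seen. Members, marker lists and tests were chosen with earlier results of these data known.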

Additional observations from a re-analysis of the deposited data

Results flagged for a closer look

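The genotype effect (16GsoT/T against WT, log2) of 14 pairs of member and contrast differed between regions or ages by an interaction term in edgeR. Between CB and HC at P35 the effect was higher in CB for *Slit3* (1.34), *Epha3* (1.15) and *Sema5a* (0.84) and lower in CB for *Sema3a* (-1.52), *Plxnd1* (-1.17) and *Epha8* (-1.03). Of these, *Slit3*, *Epha3* and *Plxnd1* were called in all 12 fits that left out 1 library, *Epha8* in 8, *Sema3a* in 7 and *Sema5a* in 3. The terms held no covariate for the kind of index. In P35 HC the single-index WT library N10 lay within the 16GsoT/T range for *Sema3a* (7.12 CPM), *Sema5a* (132 CPM) and *Epha8* (7.12 CPM). For *Slit3*, *Epha3* and *Plxnd1* it lay outside that range. The part of the index in these terms was not tested. *Epha3* had effects of 0.39 in CB and -0.75 in HC, neither called, and *Plxnd1* of -0.31 in CB and 0.86 in HC, neither called.

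Between P35 and P14 in CB the effect was higher at P35 for *Slit3* (0.82), *Unc5d* (0.82), *Sema4b* (0.75), *Sema5a* (0.63), *Sema4d* (0.50) and *Sema6a* (0.49) and lower at P35 for *Sema3c* (-0.85) and *Plxna3* (-0.59). *Slit3*, *Unc5d* and *Sema4b* were called in all 12 fits that left out 1 library, *Sema3c*, *Plxna3* and *Sema6a* in 5 and *Sema4d* and *Sema5a* in 3.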

How the results depend on the processing

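No paired analysis was possible because the groups compared share fewer than 2 replicate numbers in the labels. Over the other settings and the fits that left out 1 library, 1067 values of named members kept direction and side of the threshold, 150 lost the call, 12 gained it and 1 reversed: *Efna5* in P35 HC, at -0.0202 with the kind of index as a covariate. In that fit N10 alone stood for WT in the genotype effect. Members called by DESeq2 numbered 1 (P14 CB), 13 (P35 CB), 3 (P14 HC) and 2 (P35 HC), and 1 each for the interaction with region at P14 and with age in HC (adjusted p-values that DESeq2 left undefined were not counted). Without a filter on low counts 1 member was called in P14 CB, 3 in P35 HC, 10 for the interaction with region at P35 and 1 for that with age in HC. Offsets for GC content and exon length called 1 in P14 CB, size factors of DESeq2 in edgeR called 0 in P14 HC, one fit of the 12 P14 libraries called 2 in P14 HC, and a fold of at least 1.5 left 9 in P35 CB. The cause was not tested, apart from the fold, which is a stricter rule. Over all genes edgeR and DESeq2 called 81 and 234 genes for P14 CB, 124 and 397 in P14 HC (326 in one fit of the 12 P14 libraries) and 18 and 45 in P35 HC (134 without a filter). For P35 CB these counts were 4947 and 3631.

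With 1 library left out, the members called ranged from 0 to 1 (P14 CB), 12 to 19 (P35 CB), 0 to 1 (P14 HC), 0 to 6 (P35 HC), 52 to 55 between regions at each age, 45 to 49 between ages in CB and 12 to 24 in HC. For interactions they ranged from 3 to 11 with region at P35, 3 to 12 with age in CB and 0 to 1 with age in HC, and stayed at 0 with region at P14. The members' median standard error (log2) was 0.19 in P35 HC, which had the fewest reads and the largest spread between libraries (biological coefficient of variation 0.125), 0.14 in P14 HC, 0.13 in P35 CB and 0.11 in P14 CB. The part of depth in these errors was not tested.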
